A study of Homo sapiens with 12 samples.

Results

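The levels of 11280 genes were compared between undifferentiated H9 cells and NTU1 cells, a pair of human embryonic stem cell (hESC) lines that both carry the label MEG3-OFF, after the long non-coding RNA MEG3. The H9 group held 2 arrays, and the MEG3-OFF NTU1 group held 5 arrays (replicates 5 to 9). Every gene with a probe of 1 symbol on the array was considered, 20046 in all, and a gene entered the comparison where the 1 probe that stood for it, that of highest mean across the 12 arrays, had a detection p-value under 0.01 on at least 2 of these 7 arrays.

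Pluripotent cells keep an undifferentiated state through a circuit of transcription factors around POU5F1, SOX2 and NANOG, while FGF and activin or NODAL signalling sustain that state and BMP, WNT and Notch signalling help to move cells out of it. Established hESC lines come from different embryos and so differ in genotype, and they also differ in imprinting, in culture history and in the strength of these signalling pathways. MEG3 is transcribed from the maternal copy of the imprinted DLK1-DIO3 locus and is often silenced in cultured pluripotent cells.

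The study used Illumina HumanHT-12 bead arrays to set MEG3-OFF against MEG3-ON sublines of NTU1 and took H9 along as a pluripotent control. Both lines were grown undifferentiated on mouse embryonic fibroblast feeders in serum-free ReproCELL medium. H9 carries the label MEG3-OFF too, with the capacity for neural differentiation given as not detected, and the 5 NTU1 sublines carry the labels MEG3-OFF and worse neural differentiation; no gene was edited and no agent was applied in either group. Each group is 1 line, the 12 arrays shared 1 chip on which each group sat side by side, and passage numbers are not given, so that line, position on the chip and time in culture cannot be told apart, nor can a difference in transcript level from a difference in sequence under a probe. The labels do not say whether the 2 H9 arrays came from separate cultures, and for its PCR assays the study counted its H9 material as 1 biological sample, so the p-values below measure only the spread between these arrays.

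The arrays were of similar yield, with 17567 to 17946 detected probes and median signals of 83.6 to 93.5 on the H9 arrays, against 16878 to 17727 detected probes and median signals of 89.3 to 104 on the MEG3-OFF NTU1 arrays. H9 replicate 2 stood farther from NTU1 than H9 replicate 1 did. The standard deviation of the gene differences to single MEG3-OFF NTU1 arrays was 0.612 to 0.739 for H9 replicate 2 and 0.489 to 0.595 for H9 replicate 1, whereas it was 0.39 between the H9 arrays and 0.295 to 0.448 between MEG3-OFF NTU1 arrays. Results are therefore given with and without H9 replicate 2. Without it the H9 group is 1 array, and the p-values then rest on the spread of the NTU1 arrays. A call kept that way reuses H9 replicate 1 and is no independent check.

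Levels are normalized log2 signals, differences are log2 levels of H9 minus MEG3-OFF NTU1 with their standard errors, and a gene was called changed at an adjusted p under 0.05 (limma). Of the 11280 genes, 3680 were called (32.6%), 1543 of them higher in H9 (13.7%) and 2137 lower (18.9%). The median difference over all genes was -0.07. Calls over 2-fold numbered 520 (4.61%), 315 higher and 205 lower. Both H9 arrays lay outside the range of the 5 MEG3-OFF NTU1 arrays for 5067 genes (44.9%), 2166 above it and 2901 below it. Of the 3680 called genes, 3511 were among these, so lack of overlap adds little to a call. Without H9 replicate 2 the calls fell to 586 (5.2%), with 203 higher (1.8%) and 383 lower (3.4%), and 559 genes were called in the same direction both ways, 243 of them over 2-fold. Without H9 replicate 1, 3194 genes were called. In a bulk sample, fewer cells of a type and less RNA per cell cannot be told apart.

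**Figure D1:**
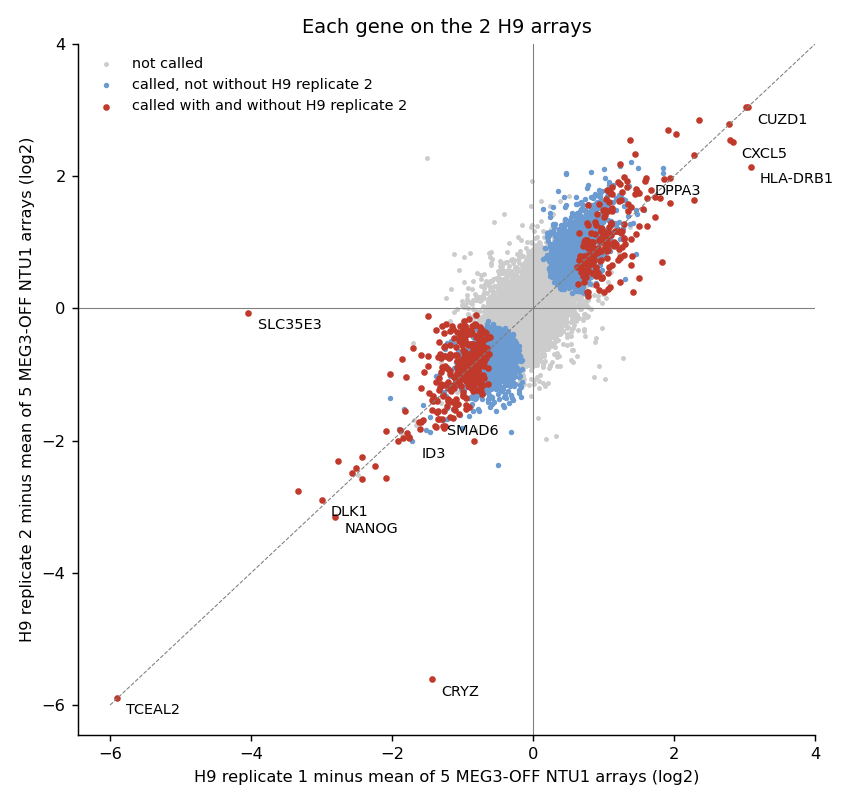
Difference of each of 11280 genes between H9 and the mean of the 5 MEG3-OFF NTU1 arrays (log2), for H9 replicate 1 on the horizontal axis and H9 replicate 2 on the vertical axis; the dashed line marks equal values. Red points are the genes called with and without H9 replicate 2, blue points those called only with it and grey points those not called. CRYZ and SLC35E3 lie far from the line.

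The plot sets the 2 H9 arrays against each other. The differences of the H9 arrays to the MEG3-OFF NTU1 mean correlated at r = 0.779 across genes, which are not independent and share the NTU1 mean. All 3680 called genes had the same sign on both H9 arrays, which calling on the mean of the 2 arrays largely brings about. CRYZ, which encodes a quinone oxidoreductase of the crystallin family, had 9.05 and 4.87 in H9, against 10.12, 10.65, 10.65, 10.41 and 10.59 in MEG3-OFF NTU1. SLC35E3, a member of a nucleotide sugar transporter family, had 5.30 and 9.27 in H9, against 9.41, 9.19, 9.41, 9.39 and 9.30 in MEG3-OFF NTU1. For CRYZ both H9 arrays were below all NTU1 arrays, replicate 2 by far more, whereas for SLC35E3 H9 replicate 2 lay within the NTU1 range and replicate 1 far below it, so the group mean describes neither array.

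Both groups had the markers of undifferentiated stem cells. LIN28A, POU5F1, SOX2, DNMT3B, ZFP42, PODXL and SALL4 were detected on all 7 arrays. POU5F1, the core pluripotency factor OCT4, had 12.86 and 12.56 in H9, against 12.67, 12.41, 12.34, 12.57 and 12.56 in MEG3-OFF NTU1, and SOX2, its partner on DNA, had 11.76 and 11.98 in H9, against 11.96, 12.04, 12.47, 11.91 and 12.24 in MEG3-OFF NTU1. The groups overlapped for both genes and neither was called (adjusted p = 0.278 and 0.27), and a second detected probe of each gave a difference of the other sign. LIN28A, which blocks let-7 microRNA maturation, was lower in H9 by a small amount (-0.40 ± 0.13, adjusted p = 0.0343), as was SALL4, a zinc finger factor of the same circuit (-0.54 ± 0.19, adjusted p = 0.0483). With H9 replicate 2 left out, the differences were -0.44 and -0.68 and neither was called (adjusted p = 0.144 and 0.122).

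NANOG, the homeobox factor of the core circuit, gave opposite results on its 2 probes. The tested probe had 7.94 and 7.60 in H9, against 10.57, 10.68, 10.94, 10.51 and 11.04 in MEG3-OFF NTU1, a difference of -2.98 ± 0.20 (adjusted p = 1.2e-06). The other probe had 11.46 and 11.30 in H9, against 4.69, 4.67, 4.63, 4.63 and 4.58 in MEG3-OFF NTU1, where it was detected on none of the 5 arrays, so that it was at least 46.4-fold higher in H9. On the 4 MEG3-ON NTU1 arrays that second probe lay between 4.49 and 4.63 and was not detected either. Among 2850 genes with several detected probes, NANOG was the 1 gene whose probes differed by over 1 log2 unit in opposite directions. NANOG has near-identical retrocopies in the genome, and no source used here says which transcript or copy each probe reads. The direction of NANOG between the lines is therefore not settled by these arrays.

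**Figure D2:**
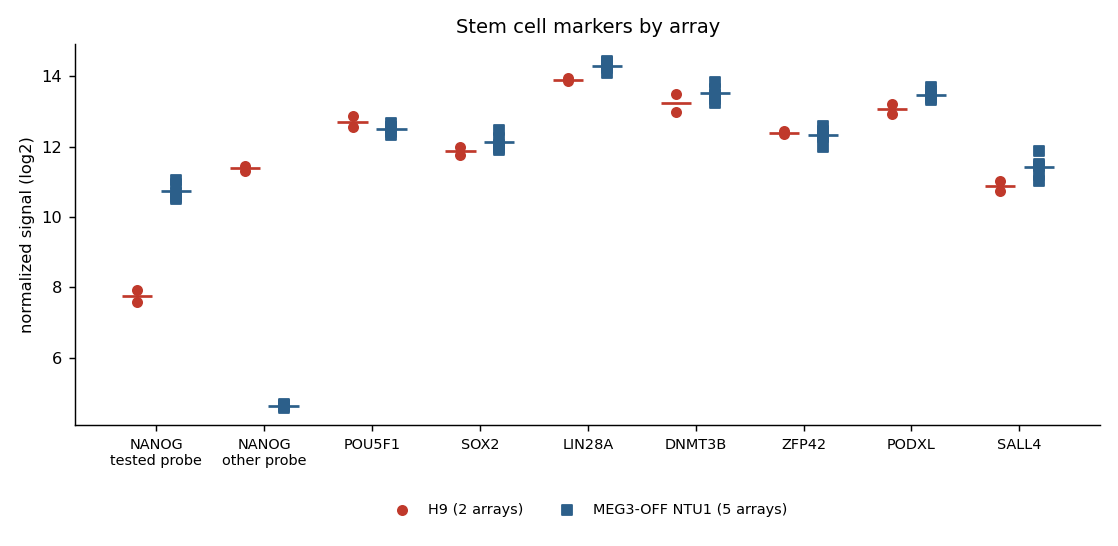
Normalized log2 signals of 8 markers of undifferentiated stem cells on the 2 H9 arrays (red circles) and the 5 MEG3-OFF NTU1 arrays (blue squares), with the group mean as a bar; both probes of NANOG are drawn. The groups lie close for all markers except NANOG, whose tested probe is lower in H9 (7.94 and 7.60) and whose other probe is higher (11.46 and 11.30).

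Of 17 markers of other cell types, 8 were detected on none of the 7 arrays, 5 on some and 4 on all. Detected on none were the neural factors PAX6 and SOX1, the mesoderm factors TBXT and MIXL1, the endoderm factors SOX17 and GATA6 and the fibroblast genes COL3A1 and DCN. SOX11, a neural factor, was detected on all 7, at 9.59 and 9.62 in H9, against 9.46 to 10.38 in MEG3-OFF NTU1. The endoderm factor FOXA2 was detected on 1 H9 array and 2 MEG3-OFF NTU1 arrays, the trophoblast hormone subunit CGA on 1 array of each group, and the trophoblast markers GATA3 and KRT7 on 1 MEG3-OFF NTU1 array each. HAND1, a factor of mesoderm and amnion, was below background on both H9 arrays (4.72 and 4.71), against 9.51, 6.96, 7.12, 4.71 and 4.65 in MEG3-OFF NTU1, where it was detected on 3 of 5. COL1A1, COL1A2 and THY1, which fibroblasts make in large amounts and which stem cells can also express, were detected on all 7 arrays. COL1A1 had 9.19 and 9.37 in H9, against 9.15, 9.76, 9.52, 9.82 and 9.75 in MEG3-OFF NTU1, and none of these 3 genes was called. Over the 23 tested genes of a fibroblast and feeder list, 3 were called higher in H9 and 1 lower, and the median difference was -0.29 on H9 replicate 1 and -0.01 on H9 replicate 2, against array medians from -0.16 to 0.07 in MEG3-OFF NTU1.

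MEG3 was low in both groups. It was detected on neither H9 array (5.10 and 5.15) and on 1 of 5 MEG3-OFF NTU1 arrays (5.16, 5.37, 5.08, 6.30 and 4.97), whereas the MEG3-ON NTU1 arrays had 13.15 to 14.12. DLK1, a paternally expressed gene of the locus that encodes a Notch-like membrane protein, did differ between the groups. DLK1 had 6.32 and 6.41 in H9, against 8.16, 9.15, 10.13, 10.94 and 8.18 in MEG3-OFF NTU1, a difference of -2.95 ± 0.57 (adjusted p = 0.00311). All 5 NTU1 arrays lay above both H9 arrays, over a range of nearly 3 log2 units among themselves, and the call held without H9 replicate 2 (-2.995, adjusted p = 0.0447). Of the 20 listed genes of the locus, 4 were tested, and DLK1 was the 1 called.

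The microRNAs of the miR-302 cluster, an abundant family in human pluripotent cells, repress cell cycle inhibitors and differentiation genes. MIR302C and MIR302D were picked after their values were seen, and their mature 3′ arms are shown because they share the seed that sets their targets; capitals mark the seed (bases 2 to 8).
hsa-miR-302c-3p: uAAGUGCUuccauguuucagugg
hsa-miR-302d-3p: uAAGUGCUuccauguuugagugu
Both genes are on chromosome 4 (sequences from RefSeq, GRCh38.p14), and whether the array probes read the mature, the precursor or a host transcript is not given.

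MIR302C had 8.87 and 9.79 in H9, against 8.19, 7.73, 7.07, 7.52 and 7.65 in MEG3-OFF NTU1 (1.69 ± 0.31, adjusted p = 0.00254), and MIR302D had 6.94 and 7.90 in H9, against 6.48, 6.14, 5.28, 5.83 and 5.89 in MEG3-OFF NTU1 (1.497 ± 0.32, adjusted p = 0.00505). Both H9 arrays were above all 5 NTU1 arrays for each gene, H9 replicate 2 more so. Without that array neither was called (adjusted p = 0.069 and 0.122). MIR371A, MIR372 and MIR373, of a second stem cell cluster, were not called (differences of -0.18, -0.38 and -0.38).

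Among 33 tested pluripotency factors, 5 were called higher in H9 and 9 lower, with a median of -0.24, where the median over all genes was -0.07; for this and the lists that follow, 13.7% of all genes were higher and 18.9% lower. The lower count holds NANOG by its tested probe, which the other probe would turn. With H9 replicate 2 left out, 2 higher and 4 lower remained called, NANOG again among the lower. The higher genes were led by POLR3G, an RNA polymerase III subunit typical of pluripotent cells, which had 11.52 and 11.53 in H9, against 10.40, 10.10, 10.72, 10.44 and 10.10 in MEG3-OFF NTU1 (1.17 ± 0.20, adjusted p = 0.00174). USP44, a histone H2B deubiquitinase, and GDF3, a TGF-beta family ligand, were also higher (1.03 and 1.01), but were not called without H9 replicate 2. Lower in H9 were TERT, the catalytic subunit of telomerase, and MYCN, a transcription factor that drives proliferation. TERT was below background on both H9 arrays (5.42 and 5.10), against 6.40, 5.997, 6.39, 6.58 and 6.69 in MEG3-OFF NTU1, and was at least 1.54-fold lower in H9 (adjusted p = 0.00173). MYCN had 12.20 and 12.30 in H9, against 13.48, 13.20, 13.36, 12.89 and 12.97 in MEG3-OFF NTU1 (-0.93 ± 0.17, adjusted p = 0.00262). POLR3G, TERT and MYCN kept their calls without H9 replicate 2 and, like most called genes, did not overlap between the groups.

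Of 16 tested genes of the naive state and the early embryo, 3 were higher and 3 lower. DPPA3, a maternal factor that protects methylation of the early embryo, had 8.53 and 8.90 in H9, against 7.50, 6.98, 6.84, 6.503 and 6.85 in MEG3-OFF NTU1 (1.78 ± 0.23, adjusted p = 0.000362; without H9 replicate 2 1.60, adjusted p = 0.0142). NLRP7, a maternal gene needed for imprint establishment, had 8.73 and 8.91 in H9, against 7.48, 7.63, 7.71, 7.65 and 7.67 in MEG3-OFF NTU1 (1.19 ± 0.18, adjusted p = 0.00096), and kept its call without H9 replicate 2. Both were above every NTU1 array. ALPL, the alkaline phosphatase used as a stem cell stain, was lower in H9 (-0.94 ± 0.19, adjusted p = 0.00381; without H9 replicate 2 adjusted p = 0.0795), and DNMT3L, a cofactor of de novo methylation, had 4.91 and 5.51 in H9, below background, against 5.50 to 6.002 in MEG3-OFF NTU1, where it was detected on 2 of 5 arrays and overlapped H9.

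The largest differences were in genes of varied function, the 15 largest in each direction among called genes whose 2 H9 arrays lay outside the NTU1 range. TCEAL2, an X-linked gene of the transcription elongation factor A-like family, was the largest: it was below background on both H9 arrays (4.89 and 4.90), against 10.53, 10.88, 10.81, 10.73 and 10.998 in MEG3-OFF NTU1, and was at least 32.1-fold lower in H9 (adjusted p = 1.24e-11). BEX5, a small X-linked gene expressed in brain, was at least 2.61-fold lower. SNHG8, a non-coding snoRNA host gene, had 8.26 and 8.84 in H9, against 10.99, 11.56, 11.82, 11.82 and 11.80 in MEG3-OFF NTU1 (-3.05 ± 0.23, adjusted p = 3.81e-06). Both H9 arrays lay over 2 log2 units below every NTU1 array. RYBP, a subunit of the variant Polycomb complex that ubiquitinates histone H2A, had 7.46 and 7.55 in H9, against 10.55, 10.05, 10.12, 9.82 and 9.62 in MEG3-OFF NTU1 (-2.53 ± 0.20, adjusted p = 6.28e-06).

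GAA, the lysosomal enzyme that degrades glycogen, had 5.30 and 5.14 in H9, against 7.89, 7.61, 7.58, 7.98 and 7.54 in MEG3-OFF NTU1 (limma adjusted p = 1.87e-06). Its tested probe was below background on both H9 arrays and was at least 3.82-fold lower. A second probe, detected on 1 of them, differed by -1.88. GRHL3, a transcription factor of surface ectoderm, was at least 3.22-fold lower, GGACT, which breaks down crosslinked amino acids, at least 3.79-fold and FAM24B at least 3.92-fold. ATP5MK, a small subunit of ATP synthase, had 5.87 and 6.32 in H9, against 8.48, 8.89, 8.71, 8.58 and 8.49 in MEG3-OFF NTU1 (-2.54 ± 0.16, adjusted p = 6.08e-07). FCGBP, a mucin-like secreted protein (-1.96 ± 0.17), and THNSL2, a threonine synthase-like gene (-1.90 ± 0.15), were also lower. DSTYK, a dual specificity kinase, was lower on its tested probe (-1.97 ± 0.15), but its 3 other detected probes differed by 0.01 to 0.15 in the other direction. All of these kept their calls without H9 replicate 2.

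Among the largest higher genes, CUZD1, a zymogen granule membrane protein of the pancreas, had 8.85 and 8.85 in H9, against 5.79, 5.77, 5.80, 6.32 and 5.36 in MEG3-OFF NTU1 (3.04 ± 0.19, adjusted p = 6.08e-07). MAOA, the X-linked monoamine oxidase that breaks down serotonin, had 7.90 and 7.94 in H9, against 4.73, 5.08, 4.97, 4.64 and 5.03 in MEG3-OFF NTU1, where it was below background, and was at least 4.22-fold higher. ORM1, an acute phase plasma protein with a near-identical neighbour, ORM2, was at least 3.17-fold higher, at 7.50 and 7.51 in H9, against 4.72, 4.74, 4.63, 4.78 and 4.74 in MEG3-OFF NTU1. The H9 arrays agreed to within 0.04 log2 units for each of these 3 genes.

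CXCL5, a chemokine that attracts neutrophils, had 10.54 and 10.24 in H9, against 7.24, 7.60, 8.99, 7.43 and 7.31 in MEG3-OFF NTU1 (2.68 ± 0.42, adjusted p = 0.00115), with NTU1 replicate 7 above the other NTU1 arrays. C19orf33 (2.67 ± 0.48), ABHD12B, a hydrolase-domain gene (2.60 ± 0.35), GOLIM4, a Golgi membrane protein (2.33 ± 0.22), MIX23, a mitochondrial protein (2.31 ± 0.34), NPFFR2, a neuropeptide receptor (2.30 ± 0.31), and PLA2G2A, a secreted phospholipase (at least 2.05-fold higher), were called with and without H9 replicate 2. NPTX1, a neuronal pentraxin that clusters glutamate receptors, had 11.40 and 10.76 in H9, against 9.10, 8.81, 9.14, 9.20 and 9.33 in MEG3-OFF NTU1 (1.97 ± 0.45, adjusted p = 0.0064). For OXCT1, the enzyme that lets cells use ketone bodies, and DNAJC15, a mitochondrial cochaperone, NTU1 itself was split. OXCT1 had 7.39 and 7.68 in H9, against 4.88, 4.82, 6.70, 6.59 and 4.76 in MEG3-OFF NTU1, and DNAJC15 had 7.69 and 7.90 in H9, against 5.07, 5.18, 7.10, 6.81 and 5.09 in MEG3-OFF NTU1. In both genes NTU1 replicates 7 and 8 lay nearer to H9 and replicates 5, 6 and 9 lay far below, and neither call held without H9 replicate 2 (adjusted p = 0.105 and 0.102).

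BMP signalling genes were lower in H9. BMPs are secreted ligands that act through SMAD1 and SMAD5 to induce the ID genes and the feedback inhibitor SMAD6. Of 18 tested genes of this pathway, none was called higher and 8 were called lower (44.4%, where 18.9% of all genes were), with a median of -0.60 (-0.60 on H9 replicate 1 and -0.53 on H9 replicate 2). The array medians of the MEG3-OFF NTU1 arrays for the same genes ran from -0.20 to 0.27. With no detection filter the median was -0.18. Most of these calls were lost without H9 replicate 2, as were most calls over all genes. SMAD6 alone kept its call, which says little about the pathway.

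The promoter of SMAD6 is shown with the palindrome GTCTAGAC, a SMAD binding motif described from in vitro selection, in capitals (RefSeq, GRCh38.p14, chr15:66701986-66702285, plus strand).
SMAD6 promoter: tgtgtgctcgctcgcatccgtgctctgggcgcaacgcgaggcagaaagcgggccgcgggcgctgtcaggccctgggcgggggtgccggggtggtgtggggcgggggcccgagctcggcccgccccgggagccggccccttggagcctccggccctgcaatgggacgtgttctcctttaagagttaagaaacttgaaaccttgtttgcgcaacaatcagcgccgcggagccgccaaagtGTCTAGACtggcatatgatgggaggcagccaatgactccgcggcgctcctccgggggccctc
The motif was searched on both strands in windows from 250 bases before to 50 bases after each gene's start and was chosen after windows of the list were looked at. It is in 0.201% of 27305 promoter windows, and SMAD6 was the 1 of 16 listed BMP genes with a window that had it. A match describes the letters only.

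SMAD6 had 6.68 and 6.35 in H9, against 8.46, 7.90, 7.95, 7.997 and 7.79 in MEG3-OFF NTU1 (-1.51 ± 0.20, adjusted p = 0.000397; without H9 replicate 2 -1.34, adjusted p = 0.0146). ID1, which blocks basic helix-loop-helix factors, had 12.10 and 11.79 in H9, against 13.93, 13.995, 13.97, 13.03 and 13.16 in MEG3-OFF NTU1 (-1.68 ± 0.35, adjusted p = 0.00442). ID3, of the same family, had 11.30 and 10.999 in H9, against 13.51, 13.27, 13.60, 12.34 and 12.34 in MEG3-OFF NTU1 (-1.86 ± 0.41, adjusted p = 0.00555). Both H9 arrays were below all NTU1 arrays, and for ID1 and ID3 NTU1 replicates 8 and 9 were lower than replicates 5 to 7. ID4 was below background on both H9 arrays (5.05 and 5.72), against 7.59, 7.70, 7.74, 5.88 and 6.46 in MEG3-OFF NTU1, and was at least 2.44-fold lower (adjusted p = 0.0266). The differences of ID1 and ID3 were -1.52 and -1.72 without H9 replicate 2, where ID1, ID3 and ID4 were not called (adjusted p = 0.0742, 0.0826 and 0.0988). HAND1, whose values are given above, was likewise below background in H9, high in NTU1 replicates 5 to 7 and below background in replicates 8 and 9, and the median of the trophoblast and amnion list was -0.54 and -0.59 on the H9 arrays, against 0.93, 0.04, 0.26, -0.28 and -0.50 on the MEG3-OFF NTU1 arrays. The part of such cells in the BMP values was not tested. BMP4, a ligand listed with the mesoderm genes, was below background on both H9 arrays (5.20 and 4.74). It had 5.21 to 6.38 in MEG3-OFF NTU1, where it was detected on 3 of 5 arrays.

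Of 28 tested Notch and Hedgehog genes, 1 was higher and 12 were lower (46.4% called, where 32.6% of all genes were), with a median of -0.52 (-0.39 and -0.61 on H9 replicates 1 and 2), against NTU1 array medians from -0.09 to 0.13. Without H9 replicate 2 the calls were PTCH1 and NOTCH1, both lower. PTCH1, the Hedgehog receptor and itself a target of the pathway, had 5.84 and 6.10 in H9, against 7.73, 8.01, 7.30, 7.39 and 7.86 in MEG3-OFF NTU1 (-1.69 ± 0.24, adjusted p = 0.000742). NOTCH1, a Notch receptor, had 8.86 and 8.81 in H9, against 10.21, 9.93, 10.04, 10.27 and 10.23 in MEG3-OFF NTU1 (-1.30 ± 0.17, adjusted p = 0.000398). HES1, a Notch target and repressor of differentiation genes, had 7.10 and 6.93 in H9, against 9.20, 8.76, 9.08, 7.97 and 7.83 in MEG3-OFF NTU1 (-1.55 ± 0.39, adjusted p = 0.0104), and like the ID genes was lower in NTU1 replicates 8 and 9 than in the other NTU1 arrays. The ligand DLL1 (-0.97 ± 0.34) overlapped NTU1 replicate 9 on H9 replicate 1. HEYL, a second Notch target, was the 1 gene called higher (0.47 ± 0.16, adjusted p = 0.0392), and it overlapped the NTU1 arrays.

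WNT pathway genes were lower in 10 of 25 tested (40%, where 18.9% of all genes were) and higher in none, with a median of -0.39. With no detection filter the median was -0.03, and the calls of the list did not hold without H9 replicate 2. FZD2, a WNT receptor, had 8.43 and 8.18 in H9, against 9.32, 8.997, 10.01, 9.92 and 8.80 in MEG3-OFF NTU1 (-1.10 ± 0.28, adjusted p = 0.011). LRP5, a coreceptor (-0.80 ± 0.17), and the secreted WNT binders FRZB (-0.94 ± 0.24) and SFRP2 (-0.71 ± 0.23) were also lower, each with both H9 arrays below the NTU1 range. Receptors and antagonists of the pathway were among the lower genes together.

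Among 44 tested genes of FGF, receptor tyrosine kinase and ERK signalling, 3 were higher and 13 lower, with a median of -0.24. FGFR3 had 10.49 and 10.08 in H9, against 12.52, 11.86, 11.54, 11.73 and 11.18 in MEG3-OFF NTU1 (-1.48 ± 0.31, adjusted p = 0.00452), but a second, dimmer probe differed by 0.29 the other way. FGFR1, the main FGF receptor of hESC (-0.90 ± 0.22), and IGFBP5, a binder of insulin-like growth factors (-1.45 ± 0.41), were lower. IGF1R, the receptor of those factors, was below background on both H9 arrays (4.99 and 4.67). It had 5.36 to 6.05 in MEG3-OFF NTU1, where it was detected on 2 of 5 arrays. FGF12, an intracellular FGF homologue, was higher (1.09 ± 0.28), and FGF8, a ligand of the primitive streak, was detected in H9 (6.03 and 6.22) and below background in MEG3-OFF NTU1 (4.91 to 5.65). KIT, the stem cell factor receptor, was higher (0.56 ± 0.16). Of the 24 tested genes of NODAL, activin and TGF-beta signalling, 3 were higher and 5 lower. The NODAL targets LEFTY1 and LEFTY2, secreted NODAL inhibitors of near-identical sequence, were higher in H9. LEFTY1 had 11.84 and 11.71 in H9, against 10.999, 9.62, 10.31, 10.40 and 10.80 in MEG3-OFF NTU1 (1.35 ± 0.45, adjusted p = 0.0341), and LEFTY2 had 12.41 and 11.77 in H9, against 10.91, 10.15, 10.82, 11.46 and 11.41 in MEG3-OFF NTU1 (1.15 ± 0.39, adjusted p = 0.0381). FST, which traps activin, was lower (-0.65 ± 0.24). Of the FGF list, 1 call was kept without H9 replicate 2, and of the NODAL list none was.

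With both H9 arrays in the fit, axon guidance genes had the largest share of calls of the 38 lists. These genes encode ligands and receptors that steer growth cones and also pattern early embryos. Of 40 tested, 24 were called (60%), 3 higher and 21 lower, where 13.7% and 18.9% of all genes were, and the median was -0.48 (-0.44 and -0.43 on the 2 H9 arrays), against NTU1 array medians from -0.08 to 0.05. Without H9 replicate 2, 1 higher and 4 lower remained called. UNC5B, a netrin receptor, had 5.95 and 5.56 in H9, against 7.61, 7.45, 7.18, 7.17 and 7.31 in MEG3-OFF NTU1 (-1.59 ± 0.21, adjusted p = 0.000398). SEMA4G, a semaphorin, was below background in H9 (4.65 and 4.79), against 5.85, 5.75, 6.33, 6.36 and 5.61 in MEG3-OFF NTU1, and was at least 1.14-fold lower (adjusted p = 0.00218). DRAXIN, a repulsive guidance cue (-1.05 ± 0.24), and CXCL12, a chemokine that guides migrating cells (-0.94 ± 0.19), were lower too. SEMA3A, a repulsive semaphorin, went the other way, with 7.51 and 7.60 in H9, against 6.82, 6.62, 6.54, 6.12 and 6.53 in MEG3-OFF NTU1 (1.03 ± 0.18, adjusted p = 0.00204). UNC5B, SEMA4G and SEMA3A kept their calls without H9 replicate 2 and, like most called genes, did not overlap NTU1. DRAXIN and CXCL12 were not called without that array.

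**Figure D3:**
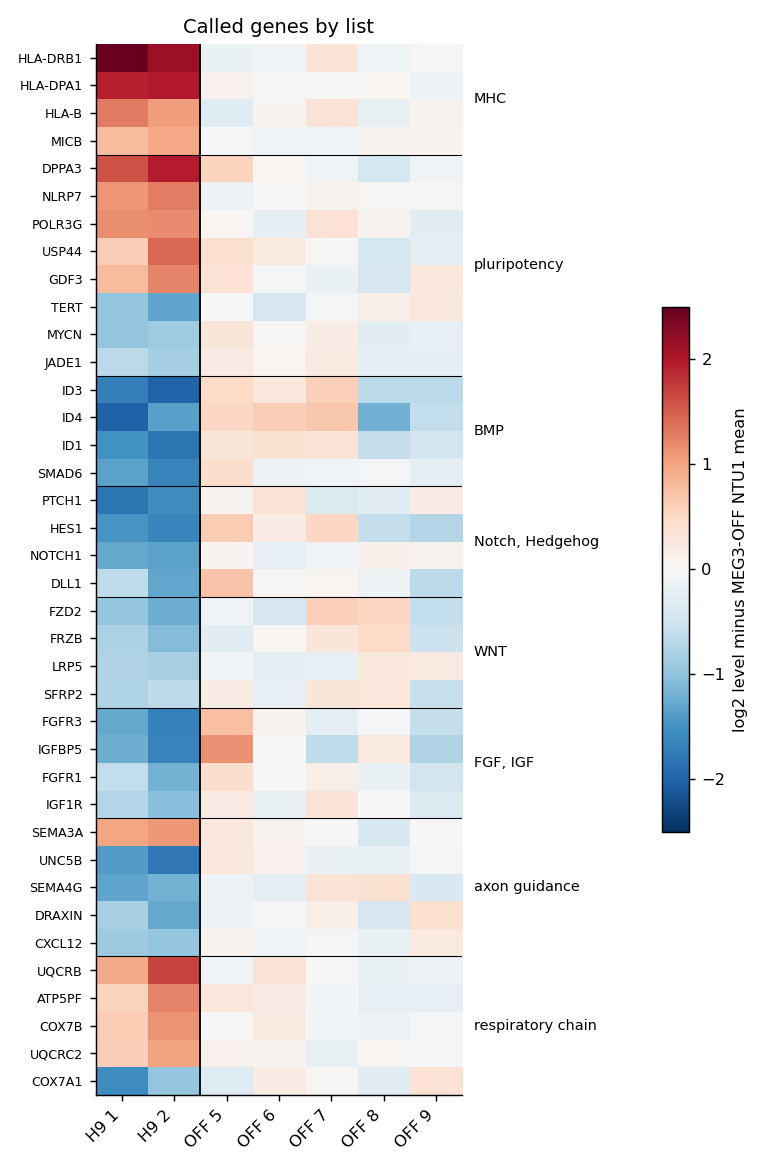
Log2 level minus the MEG3-OFF NTU1 mean on the 2 H9 arrays (left of the black line) and the 5 MEG3-OFF NTU1 arrays (right of it) for 38 called genes, grouped by list; the colour scale ends at 2.5, which H9 replicate 1 exceeds for HLA-DRB1. MHC and most respiratory chain genes are red on both H9 arrays, and the drawn BMP, Notch, Hedgehog, WNT and FGF genes are blue. The called higher genes FGF12, FGF8, KIT and HEYL of these lists are not drawn. ID1, ID3, ID4 and HES1 also vary among the NTU1 arrays.

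Other neural genes did not move one way. Of 33 tested neuronal genes, 7 were higher and 3 lower, with a median of -0.20. CNTN1, an adhesion protein of axons, had 8.36 and 8.87 in H9, against 7.12, 7.28, 6.97, 6.51 and 7.22 in MEG3-OFF NTU1 (1.59 ± 0.22, adjusted p = 0.000527) and kept its call without H9 replicate 2. STMN2, a microtubule regulator of growing axons (1.02 ± 0.24), and SYT1, the calcium sensor of synaptic vesicles (0.89 ± 0.22), were higher with both H9 arrays but were not called with H9 replicate 1 alone. Of 23 neuroectoderm and neural progenitor genes, 3 were higher and 2 lower. FABP7, a fatty acid binder of radial glia, had 7.82 and 8.45 in H9, against 6.76, 6.85, 6.25, 5.90 and 5.85 in MEG3-OFF NTU1 (1.81 ± 0.34, adjusted p = 0.00263), while POU3F1, a POU factor of neural fate, had 6.25 and 6.24 in H9, against 7.78, 7.25, 7.33, 8.08 and 7.12 in MEG3-OFF NTU1 (-1.27 ± 0.26, adjusted p = 0.00385). HESX1, a forebrain and epiblast homeobox gene, was higher (0.92 ± 0.27). None of these 3 was called without H9 replicate 2.

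Ion channel and synaptic receptor genes were called in 28.6%, below the 32.6% of all genes, with 10 of 42 lower and 2 higher, and 5 of the lower ones remained called without H9 replicate 2. KCNK12, a potassium channel subunit, had 11.52 and 10.96 in H9, against 12.27, 12.59, 12.31, 12.44 and 12.61 in MEG3-OFF NTU1 (-1.21 ± 0.17, adjusted p = 0.000693). CACNA1H, a T-type calcium channel (-1.20 ± 0.20), and GRM4, a glutamate receptor (-1.09 ± 0.16), kept their calls too. HTR7, a serotonin receptor, was below background in H9 (5.38 and 5.41), against 7.06, 7.32, 6.46, 6.15 and 7.08 in MEG3-OFF NTU1, and was at least 2.04-fold lower, a call that did not hold without H9 replicate 2 (adjusted p = 0.107).

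Genes of the major histocompatibility complex (MHC) and of antigen processing were higher in H9. Class I molecules show peptides to cytotoxic T cells, and class II molecules are made mainly by antigen-presenting cells. HLA-DRB1 and HLA-DPA1 were detected on no MEG3-OFF NTU1 array and passed the detection filter through the H9 arrays alone. They could enter the counts that follow only as genes higher in H9. Of 24 tested genes, 10 were called higher (41.7%, where 13.7% of all genes were) and none lower. Their median was 0.34, with 0.37 and 0.38 on the H9 arrays, against NTU1 array medians from -0.05 to 0.05. Of these, 5 remained called without H9 replicate 2 (1.8% of all genes were then called higher).

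The promoter of HLA-DRB1, the gene of the list with the largest difference, is shown with its Y box in capitals, the inverted CCAAT element CTGATTGG that nuclear factor Y binds in MHC genes (RefSeq, GRCh38.p14, chr6:32589799-32590098, minus strand).
HLA-DRB1 promoter: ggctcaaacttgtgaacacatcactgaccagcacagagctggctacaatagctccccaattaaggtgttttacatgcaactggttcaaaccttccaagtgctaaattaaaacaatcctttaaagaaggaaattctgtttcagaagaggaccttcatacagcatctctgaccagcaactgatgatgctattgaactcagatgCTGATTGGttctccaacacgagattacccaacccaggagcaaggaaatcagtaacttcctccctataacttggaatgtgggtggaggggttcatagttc
These letters, searched on both strands and chosen after the windows were looked at, are in 4.16% of 27305 promoter windows and in those of 6 of 21 listed genes with a window (HLA-B, HLA-C, HLA-F, B2M, HLA-DRB1 and HLA-DMA). A match does not show binding.

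HLA-DRB1, the beta chain of a class II molecule, had 8.03 and 7.08 in H9, against 4.78, 4.85, 5.27, 4.83 and 4.96 in MEG3-OFF NTU1, where it was below background, and was at least 3.28-fold higher (adjusted p = 8.66e-06). HLA-DPA1, a class II alpha chain, had 6.55 and 6.59 in H9, against 4.71, 4.58, 4.62, 4.65 and 4.48 in MEG3-OFF NTU1, likewise below background, and was at least 1.66-fold higher (adjusted p = 6.08e-07). HLA-B, a class I heavy chain, had 8.42 and 8.17 in H9, against 6.83, 7.18, 7.45, 6.94 and 7.21 in MEG3-OFF NTU1 (1.17 ± 0.17, adjusted p = 0.000821). MICB, a stress-induced ligand of natural killer cells, had 8.49 and 8.68 in H9, against 7.70, 7.63, 7.64, 7.79 and 7.78 in MEG3-OFF NTU1 (0.88 ± 0.14, adjusted p = 0.00115). None of the 4 overlapped between the lines, as was so for 3511 of the 3680 called genes, and each kept its call without H9 replicate 2. HLA genes are among the most variable in sequence between people, so the limit on probe sequence given above bears on them directly.

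Interferon and innate immune genes were split, with 7 of 33 tested higher and 3 lower. TRIM22, an antiviral ubiquitin ligase, had 7.98 and 7.93 in H9, against 6.47, 6.73, 6.69, 5.60 and 6.61 in MEG3-OFF NTU1 (1.54 ± 0.29, adjusted p = 0.00263). MX2, an antiviral GTPase, was detected in H9 (6.59 and 6.13) and below background in MEG3-OFF NTU1 (4.96 to 5.71), at least 1.43-fold higher. IRF1, a transcription factor of the interferon response, was lower, at 7.30 and 7.49 in H9, against 8.12, 8.24, 8.32, 8.11 and 8.37 in MEG3-OFF NTU1 (-0.84 ± 0.17, adjusted p = 0.00381). These 3 kept their calls without H9 replicate 2.

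Genes of energy metabolism differed by small amounts. Of 68 tested subunits of the respiratory chain, 20 were higher in H9 (where 13.7% of all genes were) and 2 lower, with a median of 0.22 (0.23 and 0.15 on the H9 arrays), against NTU1 array medians from -0.10 to 0.09. UQCRB, of complex III, had 10.16 and 10.89 in H9, against 9.14, 9.55, 9.22, 9.04 and 9.06 in MEG3-OFF NTU1 (1.32 ± 0.31, adjusted p = 0.00741), and UQCRC2, of the same complex, had 10.67 and 11.07 in H9, against 10.17, 10.13, 9.88, 10.11 and 10.02 in MEG3-OFF NTU1 (0.81 ± 0.15, adjusted p = 0.00262). COX7A1, a muscle form of a complex IV subunit, was below background on both H9 arrays (4.86 and 5.45), against 6.10, 6.61, 6.44, 6.14 and 6.78 in MEG3-OFF NTU1, at least 1.54-fold lower. The ATP synthase subunit ATP5MK, which is outside the list and these counts, was lower by more (-2.54 ± 0.16). Without H9 replicate 2, COX7A1 was the 1 gene of the list still called.

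Glycolysis and hypoxia genes were lower in 13 of 39 tested and higher in 2 (38.5% called, where 32.6% of all genes were), with a median of -0.27, and none was called without H9 replicate 2. DDIT4, an inhibitor of mTORC1, had 10.17 and 10.50 in H9, against 11.12, 11.39, 10.92, 12.49 and 11.59 in MEG3-OFF NTU1 (-1.17 ± 0.39, adjusted p = 0.0348). ALDOA, a glycolytic aldolase (-0.94 ± 0.20), and PFKFB4, which sets the flux of glycolysis (-0.93 ± 0.23), were lower, and P4HA1, a prolyl hydroxylase of collagen, was higher (1.26 ± 0.36). Of 43 genes of cholesterol and fatty acid synthesis, 4 were higher and 14 lower. SC5D, a sterol desaturase late in cholesterol synthesis, had 10.38 and 10.79 in H9, against 9.06, 9.24, 9.36, 9.25 and 8.93 in MEG3-OFF NTU1 (1.42 ± 0.18, adjusted p = 0.000268), and ACACB, an acetyl-CoA carboxylase, had 7.27 and 7.24 in H9, against 8.16, 8.40, 8.39, 8.62 and 8.43 in MEG3-OFF NTU1 (-1.14 ± 0.15, adjusted p = 0.000362). These 2 genes moved in opposite directions and both kept their calls without H9 replicate 2.

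Of 45 tested genes of the amino acid response and the unfolded protein response, 5 were higher and 11 lower. CTH, a cysteine-making enzyme (0.76 ± 0.21), and SARS1, a seryl-tRNA synthetase (0.50 ± 0.13), were higher, and STC2, a secreted glycoprotein (-0.82 ± 0.25), and CEBPB, a stress-responsive transcription factor (-0.82 ± 0.21), were lower. DDIT3, the stress factor CHOP, differed mainly on H9 replicate 2, with 6.19 and 7.44 in H9, against 6.54, 5.60, 5.40, 5.77 and 5.47 in MEG3-OFF NTU1. Of 56 antioxidant and detoxification enzymes, 11 were higher and 4 lower, led by ALDH1A3, a retinaldehyde dehydrogenase (1.24 ± 0.23), and CYP2S1, a cytochrome P450 (-1.08 ± 0.15). The chaperone list had 7 of 34 higher and 4 lower. CCT8, a subunit of the cytosolic chaperonin, was higher (1.17 ± 0.26), whereas HSF1 (-0.89 ± 0.19) was lower. The stress-induced genes BAG3 (-0.82 ± 0.15), HSPA1A (-0.70 ± 0.18) and HSPA1B (-0.70 ± 0.14) were lower too, the last pair being near-identical genes that a probe may not tell apart. Cytosolic ribosomal protein genes, many of which have processed copies, were higher in 14 of 69 and lower in 2, with a median of 0.10, and none was called without H9 replicate 2. Of the genes named here, SARS1, CYP2S1 and BAG3 kept their calls without that array.

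DNA methylation enzymes and readers were higher in 3 of 22 tested and lower in 4, near the shares over all genes. TDG, the glycosylase that completes active demethylation, had 12.32 and 12.29 in H9, against 11.25, 11.10, 11.25, 10.997 and 10.99 in MEG3-OFF NTU1 (1.19 ± 0.13, adjusted p = 0.000129; without H9 replicate 2 1.21, adjusted p = 0.00399). DNMT1, the maintenance methyltransferase (-0.59 ± 0.15), its partner UHRF1 (-0.54 ± 0.18) and TRIM28, a corepressor that protects imprints (-0.82 ± 0.18), were lower, and without H9 replicate 2 they were not called, at -0.48, -0.48 and -0.42. Of 58 Polycomb and histone modifier genes, 4 were higher and 15 lower. HDAC4, a histone deacetylase, had 7.12 and 6.99 in H9, against 8.02, 7.95, 8.25, 8.38 and 8.18 in MEG3-OFF NTU1 (-1.10 ± 0.18, adjusted p = 0.00148) and was called both ways. EHMT2, an H3K9 methyltransferase, was lower (-1.01 ± 0.19), and KDM6A, an X-linked H3K27 demethylase, was higher (0.97 ± 0.20), both called only with H9 replicate 2. Imprinted genes outside the DLK1-DIO3 locus were higher in 2 of 33 and lower in 7. INPP5F, a phosphatase with an imprinted isoform, had 6.97 and 7.08 in H9, against 8.81, 8.19, 8.26, 8.05 and 8.22 in MEG3-OFF NTU1 (-1.28 ± 0.18, adjusted p = 0.000601), and IGF2R, the receptor that clears IGF2, had 10.52 and 10.50 in H9, against 11.33, 11.33, 11.47, 11.51 and 11.29 in MEG3-OFF NTU1 (-0.88 ± 0.16, adjusted p = 0.00231). Both lay below the NTU1 range and kept their calls without H9 replicate 2.

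Histone genes differed between the H9 arrays: the median over 20 tested genes was 0.12 on H9 replicate 1 and -0.59 on H9 replicate 2, against NTU1 array medians from -0.15 to 0.25, and H9 replicate 2 was below every NTU1 array. Cell cycle and mitosis genes were balanced, with 12 of 58 higher and 10 lower and a median of -0.01. TTK, a spindle checkpoint kinase (0.99 ± 0.17), and RRM1, a subunit of ribonucleotide reductase (0.99 ± 0.18), were higher, but were not called without H9 replicate 2. CCND1, the cyclin of entry into the cycle, had 11.58 and 11.65 in H9, against 12.88, 12.57, 12.50, 12.72 and 12.39 in MEG3-OFF NTU1 (-1.001 ± 0.17, adjusted p = 0.00173), and BIK, a pro-apoptotic protein of the p53 and apoptosis list, had 7.14 and 6.85 in H9, against 8.15, 8.51, 8.72, 8.41 and 8.27 in MEG3-OFF NTU1 (-1.41 ± 0.18, adjusted p = 0.000314). CCND1 and BIK kept their calls without H9 replicate 2 and CDKN1A, the p53 target p21, did not (-0.85 ± 0.31).

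Of 52 tested matrix, laminin and integrin genes, 5 were higher and 12 lower. LAMA5, a chain of the laminin that hESC attach to, had 12.09 and 11.79 in H9, against 13.02, 12.92, 12.75, 13.004 and 13.01 in MEG3-OFF NTU1 (-1.002 ± 0.15, adjusted p = 0.00098) and was called both ways. ITGAV, an integrin subunit that binds vitronectin, was higher (1.29 ± 0.24), mainly on H9 replicate 2, and COL5A2, a fibrillar collagen of the fibroblast list, was higher too (1.48 ± 0.36), neither of them called without that array. Of 36 cadherin and junction genes, 4 were higher and 7 lower. CDH6, a cadherin of early epithelia, had 5.88 and 5.48 in H9, against 7.48, 7.26, 8.10, 7.83 and 6.07 in MEG3-OFF NTU1 (-1.67 ± 0.41, adjusted p = 0.00908; without H9 replicate 2 adjusted p = 0.12), and JUP, the junction protein plakoglobin, was lower and called both ways (-0.96 ± 0.16). For genes of single lineages, of 9 tested streak and mesoderm genes, 1 was higher and 2 lower, of 13 endoderm genes 1 was higher and 3 lower, and of 10 trophoblast and amnion genes 1 was lower, shares of 33.3%, 30.8% and 10%, where 32.6% of all genes were called. KDR, a VEGF receptor (1.28 ± 0.26), and AFP, a plasma protein of yolk sac and liver (1.07 ± 0.30), were higher, and HHEX, a homeobox gene of endoderm (-1.14 ± 0.22), was lower, none of them called without H9 replicate 2.

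**Figure D4:**
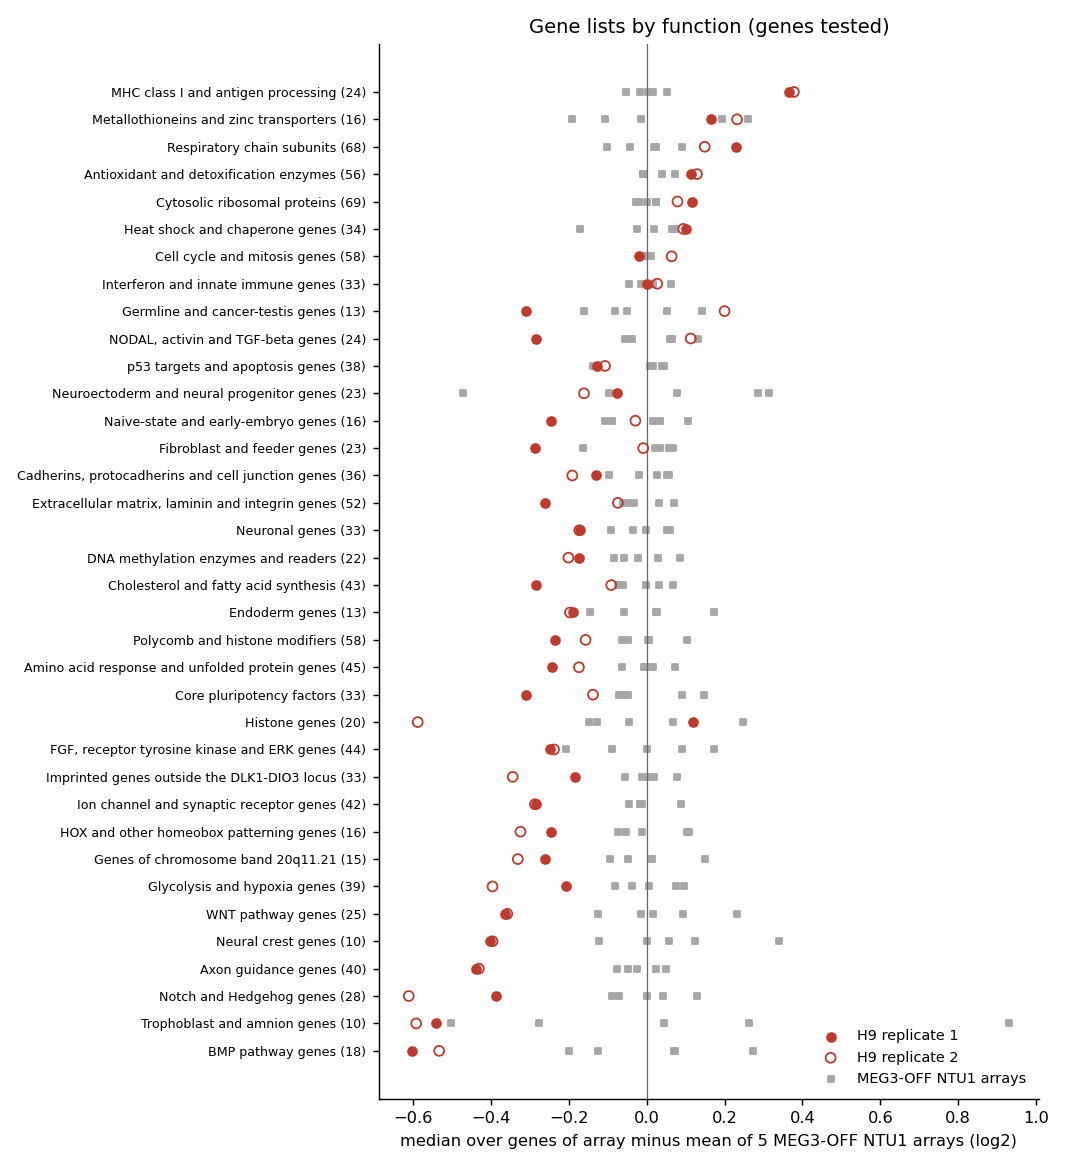
Median over the tested genes of each list (number in parentheses) of the level minus the MEG3-OFF NTU1 mean (log2), for H9 replicate 1 (filled red circles), H9 replicate 2 (open red circles) and each MEG3-OFF NTU1 array (grey squares); lists with at least 10 tested genes are drawn. The MHC list lies right of all NTU1 arrays on both H9 arrays (0.37 and 0.38), and the axon guidance, BMP, WNT, Notch and Hedgehog lists lie left of them. Many other lists also lie outside the NTU1 arrays, such as the respiratory chain and ribosomal lists on the right and the neuronal and glycolysis lists on the left. The histone list splits the H9 arrays (0.12 and -0.59).

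The same H9 arrays were also set against the 4 MEG3-ON NTU1 arrays, where 3331 of the 11280 genes were called (29.5%); both comparisons share the H9 arrays. For some genes the difference was close in both, as for SNHG8 (-3.05 to MEG3-OFF and -2.66 to MEG3-ON), RYBP (-2.53 and -2.68) and HLA-B (1.17 and 1.15). For others the NTU1 sublines differed from each other. MAOA was below background on the MEG3-OFF arrays but had 6.46 to 7.18 on the MEG3-ON arrays. DNAJC15 was higher in H9 by 1.95 against MEG3-OFF and by 0.06 against MEG3-ON (adjusted p = 0.939), and FABP7 by 1.81 and 0.42 (adjusted p = 0.374 against MEG3-ON). DLK1 was lower in H9 with -2.95 and -4.58. VENTX, a homeobox gene, was lower in H9 than in MEG3-OFF (-0.69) and higher than in MEG3-ON (0.45, adjusted p = 0.0257), and CDH11, a mesenchymal cadherin, was higher than in MEG3-OFF (0.69) and lower than in MEG3-ON (-0.63, adjusted p = 0.0132).

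Differences also followed the chromosome and the base composition of promoters. Medians were lowest on chromosomes 19 (-0.33, with 37 of 855 genes higher and 309 lower), 16 (-0.31, 26 of 544 higher and 179 lower) and 22 (-0.29, 14 of 287 higher and 85 lower), and highest on chromosomes 13 (0.14, 38 of 188 higher and 17 lower) and 18 (0.11, 32 of 157 higher and 9 lower), where the median over all genes was -0.07. The low medians were lower on H9 replicate 2 (-0.43 on chromosome 19 and -0.39 on chromosomes 16 and 22) than on H9 replicate 1 (-0.24, -0.20 and -0.20). In chromosome band 20q11.21, which is often duplicated in cultured hESC, 5 of 15 tested genes were lower and none higher, with a median of -0.27, close to that of the whole of chromosome 20 (-0.23).

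**Figure D5:**
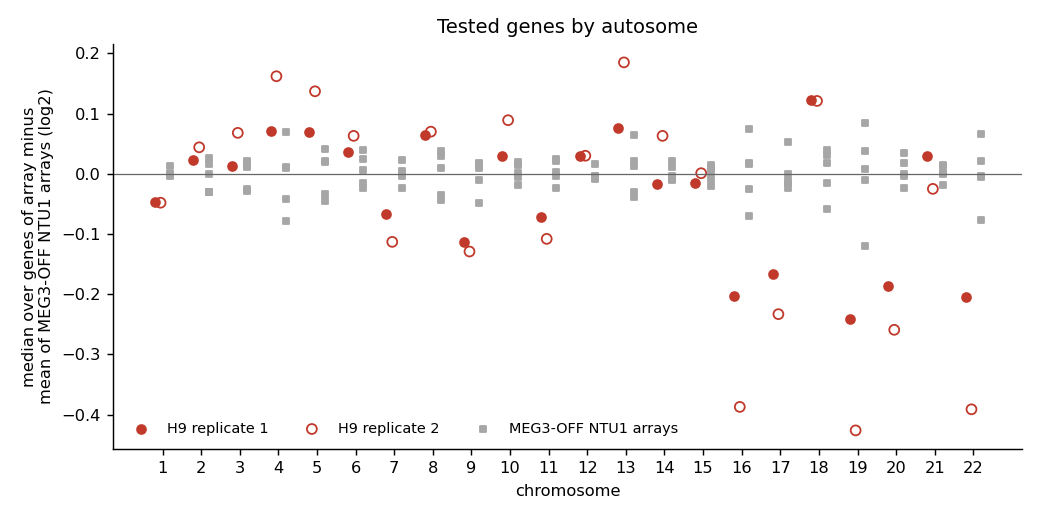
Median over the tested genes of each autosome of the level minus the MEG3-OFF NTU1 mean (log2), for H9 replicate 1 (filled red circles), H9 replicate 2 (open red circles) and each MEG3-OFF NTU1 array (grey squares). Chromosomes 16, 19 and 22 lie below the NTU1 arrays on both H9 arrays, more so on H9 replicate 2 (-0.39, -0.43 and -0.39) than on H9 replicate 1 (-0.20, -0.24 and -0.20).

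For 9092 of the tested genes (80.6%) a promoter window from RefSeq was at hand, and these were split into 5 bins by GC content. The set of windows held none for the 409 tested genes of chromosome 8, which the GC results therefore leave out. The median difference was 0.06 in the bin of lowest GC (27.7% to 56.7%), with 347 genes higher and 230 lower, and -0.24 in the bin of highest GC (73.7% to 94.0%), with 124 higher and 502 lower. The 3 bins between had medians of 0.03, -0.04 and -0.13. On H9 replicates 1 and 2 in turn, the median was 0.07 and 0.08 in the lowest bin and -0.2 and -0.28 in the highest. Median promoter GC was 75.5% in the BMP list, 72.7% in the axon guidance list, 72.0% in the Notch and Hedgehog list and 71.7% in the WNT list, against 65.3% over all genes. Other lists with low medians varied in promoter GC. The streak and mesoderm list, with the lowest median (-0.93, 9 genes), had 66.0%. The neural crest and the trophoblast lists (-0.43 and -0.41, 10 genes each) had 66.3% each. The ion channel list (-0.30) had 70.7%, the glycolysis list (-0.27) 69.7%, the FGF list (-0.24) 69% and the HOX and homeobox list (-0.29) 68.3%. The pluripotency list (-0.24) had 60.3% and the histone list (-0.27) 49.7%. After the trend with promoter GC was removed from each array, the medians were -0.45 for the BMP list, -0.37 for axon guidance, -0.40 for Notch and Hedgehog, -0.27 for WNT and -0.04 for Polycomb and histone modifiers, with -0.03 over all genes. The MHC list (median GC 62.0%) then had a median of 0.42. The part of labelling or hybridization in this trend was not tested.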

How the data were processed

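RNA of 12 samples was hybridized to Illumina HumanHT-12 bead arrays on 1 chip, and the 11 arrays of undifferentiated hESC were used here (2 H9, 5 MEG3-OFF NTU1 and 4 MEG3-ON NTU1). The table deposited by the authors gives, per probe and array, an intensity (bead signal without background subtraction or scaling) and a detection p-value against negative control beads. The authors' normalized intensity values, log transformed and quantile normalized over 12 arrays in Partek and returned to a linear scale, served as an alternative. No genome build is named in the sources used here.

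The neqc function of limma 3.58.1 in R 4.3.3 (offset 16) was applied to the intensities of the 12 arrays; it estimates the background with the help of the detection p-values, quantile normalizes and takes log2. Of 47230 probes, 30113 had 1 gene symbol, 8 several and 17109 none, the latter 2 kinds being left out; symbols were updated through RefSeq (GRCh38.p14), and 6691 genes had more than 1 probe. H9 was compared with MEG3-OFF NTU1 by lmFit and eBayes over the 11 arrays in 3 groups, which share 1 estimate of the spread (8 residual and 5.78 prior degrees of freedom), with Benjamini-Hochberg adjustment over all 11280 genes. The fit was tested on simulated data.

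Where no array of a group detected a probe, only a bound exists there. Its fold is given as at least the higher group's mean against the mean, per array, of the lowest signal among detected probes or its own where that was higher. Genes were named by a rule: the 15 largest in each direction among called genes whose H9 arrays lay outside the NTU1 range, up to 4 called genes per direction in each of 38 lists, the cell type markers, and the DLK1-DIO3 genes. MIR302C, MIR302D, SLC35E3, the other probe of NANOG and other genes outside that rule were picked after their values were seen. The members and the lists were chosen with earlier results of these data known, so that counts and medians of lists are descriptions and no test was made over a list. Alternatives were the authors' normalized values, no background correction, normalization or fit on the 7 arrays alone, a trended and robust variance, other detection filters, other choices of probe, the mean of the H9 arrays as 1 sample, the methods' t-test and each array left out in turn; removal of the promoter GC trend (a loess curve per array) and the probe with the lowest mean among detected probes were added after the data were seen. The embryoid body array entered the normalization alone.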

Additional observations from a re-analysis of the deposited data

Results flagged for a closer look

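Of 238 named genes, 14 had 1 of the 5 MEG3-OFF NTU1 arrays far from the other 4 (Dixon's test), where chance alone marks about 1 in 20 groups. The H9 group, with 2 arrays, could not be looked at in this way. NTU1 replicate 5 stood apart for 5 genes: INPP5F (8.8, the others 8.05 to 8.26), H1-10 (9.25, the others 9.74 to 9.92), CDKN1A (8.58, the others 9.43 to 9.78), BUB1B (8.92, the others 8.51 to 8.62) and CGA (6.43, the others 5.08 to 5.44). Replicate 7 stood above the others for CXCL5 (8.99, the others 7.24 to 7.60), CHAC1 (7.48, the others 6.91 to 7.05) and TP53INP1 (7.35, the others 7.05 to 7.11). Replicate 8 was apart for TRIM22 (5.60, the others 6.47 to 6.73), IRF3 (9.85, the others 9.54 to 9.62) and COL1A2 (8.79, the others 9.29 to 9.47). Replicate 9 was low for HESX1 (8.32, the others 9.18 to 9.42) and ACVR2B (5.62, the others 5.93 to 6.06), and replicate 6 was high for CDH11 (6.46, the others 6.05 to 6.16).

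The probe of NANOG that was not tested had a mean level of 11.38 on the H9 arrays and was detected on no MEG3-OFF or MEG3-ON NTU1 array, against a tested probe that was lower in H9. What the second probe reads was not tested.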

How the results depend on the processing

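The number of calls rested on H9 replicate 2: 586 genes were called without it and 3194 without H9 replicate 1. Treating the mean of the H9 arrays as 1 sample gave 1254 calls (529 higher and 725 lower), and leaving out 1 array at a time gave 586 to 3960 calls, 203 to 1660 higher and 383 to 2300 lower, with 260 to 990 over 2-fold, the lowest counts being those without H9 replicate 2. The methods' t-test at a p under 0.05 and over 1.5-fold gave 1248 genes (505 higher and 743 lower), and after Benjamini-Hochberg adjustment 789 (253 higher and 536 lower). Values without background correction are compressed by construction: calls over 2-fold then numbered 166, and 191 in the authors' normalized table. Of the 223 named genes that were called, 67 kept their calls without H9 replicate 2, 113 with the mean of the H9 arrays, 180 without H9 replicate 1 and 194 to 223 under each other setting that left all 223 genes in; 55 kept them under all settings. That last count judges each gene only by the settings that tested it. Detection on all 7 arrays left 172 of the 223 genes in, and removal of the promoter GC trend left 171. With the probe of lowest mean among detected probes, NANOG turned to 6.74, DSTYK to 0.15, FGFR3 to 0.29, EHMT1 to 0.11, SLC39A8 to -0.60, GSTM2 to -0.06 and GSR to 0.21. The cause was not tested.

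The medians named next kept their sign under every setting run, whereas those of the NODAL (-0.28 to 0.11), histone, naive-state, germline, interferon, cell cycle and DLK1-DIO3 lists changed sign under at least 1 setting. Under the authors' table, no background correction, no detection filter and removal of the promoter GC trend in turn, the axon guidance median was -0.38, -0.35, -0.23 and -0.37, and the MHC median 0.27, 0.26, 0.28 and 0.42, with 0.28 for the probe of lowest mean. The BMP median was -0.32, -0.29 and -0.18 under the first 3 of these, the Notch and Hedgehog median -0.38, -0.40 and -0.40 under the last 3, and the WNT median -0.03 with no detection filter and -0.27 with the GC trend removed. Without background correction, the medians were -0.23 on chromosome 19 and -0.22 on chromosome 16. With 1 array left out at a time, medians ranged from -0.31 to -0.13 for pluripotency factors, -0.61 to -0.39 for Notch and Hedgehog, 0.33 to 0.42 for MHC, 0.15 to 0.25 for the respiratory chain, -0.43 to -0.24 on chromosome 19 and -0.39 to -0.20 on chromosome 16. No paired analysis was possible because the H9 and MEG3-OFF NTU1 arrays share no replicate number. A group of 2 arrays limits the precision, and 164 called genes were below background on both H9 arrays and 69 on all MEG3-OFF NTU1 arrays. Such genes passed the detection filter only through the other group.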

Other observations

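The 2 H9 arrays differed from each other by over 2 log2 units for 7 genes. Besides CRYZ and SLC35E3, NNAT, an imprinted proteolipid gene of the brain, had 6.33 and 10.10 in H9, against 5.36, 5.23, 11.80, 11.25 and 5.54 in MEG3-OFF NTU1, so that each line held both low and high arrays. TMSB15A, a thymosin that binds actin, had 11.75 and 9.50 in H9, against 11.09 to 11.84 in MEG3-OFF NTU1, and FEZF1, a forebrain zinc finger factor, had 7.27 and 5.18 in H9, against 5.20 to 7.53 in MEG3-OFF NTU1. The other 2 genes were QNG1 and TRIM61, and of the 7 genes CRYZ and SLC35E3 were called.

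Of 73 named genes with another detected probe, the other probes pointed the same way in 62, and in 11 at least 1 did not (DSTYK, EHMT1, FGFR3, GSR, GSTM2, NANOG, NLGN4X, PODXL, POU5F1, SLC39A8 and SOX2).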
